A study of Homo sapiens with 45 samples.

Results

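The 10 genes described here encode the entry of glucose into the cell and the first steps of its breakdown: the transporters SLC2A1 (GLUT1) and SLC2A3 (GLUT3), the hexokinases HK1 and HK2, the isomerase GPI, the phosphofructokinase-1 subunits PFKL, PFKM and PFKP, and the bifunctional enzymes PFKFB3 and PFKFB4. They were named as a pathway, but with earlier results of these data known, so counts among them are not those of a blind choice. They are 10 of the 60624 genes listed in each of 4 count tables from T47D cells. This is a human breast cancer line of luminal type that expresses the oestrogen receptor. RNA sequencing of polyA RNA gave 45 libraries in 15 groups of 3. The stated aim was to find genes that hypoxia induces and that ZHX2, a zinc finger and homeobox factor, or its phase separation, keeps high under hypoxia.

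The first table, called shRNA here, held T47D cells with an shRNA to ZHX2 under hypoxia (shZHX2), with a control shRNA under hypoxia (shCtrl hypoxia), and with the control shRNA under normoxia. The hexanediol table held cells under hypoxia with no 1,6-hexanediol, with 0.5% and with 1% of it for 24 h. 1,6-Hexanediol is an aliphatic alcohol that dissolves many condensates held by weak hydrophobic contacts, and it also acts on other cell structures. In the rescue table all 15 libraries were hypoxic. Cells carried shZHX2 together with an expression construct labelled WT, PA or SA or with the empty vector, and the last group carried shCtrl with the vector. In the sgRNA table all 12 libraries were hypoxic and were labelled sgZHX2, sgCtrl, teton_sgZHX2 and teton_control. The labels do not say what PA, SA or teton stand for, how many hairpins or guides were used, or whether a line was a clone or a pool. The cells were made with lentivirus and drug selection. The oxygen level, and the length of hypoxia apart from the 24 h of hexanediol, were not given in the sources used here. Nothing says that the 3 libraries of a group came from separate cultures, and p-values then measure only the scatter of these libraries, which may be technical.

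As background, glucose crosses the membrane through GLUT proteins and is trapped as glucose 6-phosphate by a hexokinase. GPI turns this into fructose 6-phosphate, and phosphofructokinase-1, a tetramer of liver (PFKL), muscle (PFKM) and platelet (PFKP) type subunits, commits it to glycolysis. PFKFB3 and PFKFB4 make and remove fructose 2,6-bisphosphate, the strongest known activator of phosphofructokinase-1, and PFKFB3 is known for a high kinase to phosphatase ratio. HK1 is the housekeeping hexokinase of most tissues, and HK2 is the inducible one of muscle, fat and many tumours. Under low oxygen the factors HIF-1 and HIF-2 bind hypoxia response elements with the core letters ACGTG or GCGTG, and SLC2A1, HK2, GPI, PFKL, PFKFB3 and PFKFB4 are textbook HIF targets.

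Windows around the annotated start sites were searched for these core letters on both strands, because most of the genes moved together in hypoxia. RefSeq (GRCh38.p14) gave 26 windows of 300 bases, 250 before to 50 after a start, for 9 of the 10 genes. All 9 genes had at least 1 window with a match, in 14 of the 26 windows, and 48.4% of all 35116 RefSeq windows held a match, so a match by itself sets none of them apart. ACGTG was in 21.4% of all windows and GCGTG in 36.5%. A stretch of CACGTG, in 7.26% of all windows, holds ACGTG on both strands and counts as 2 overlapping matches. The 4 windows printed first belong to genes that were higher in hypoxia (SLC2A1, HK2, GPI and PFKFB4). The last is a window of HK1, whose hypoxic and normoxic libraries overlapped. They lie at chr1:42958819-42959118 (SLC2A1, minus strand), chr2:74834920-74835219 (HK2, plus strand), chr19:34364742-34365041 (GPI, plus strand), chr3:48556754-48557053 (PFKFB4, minus strand) and chr10:69269750-69270049 (HK1, plus strand), are written 5′ to 3′ on the strand of the gene, and have the matches in capitals.
SLC2A1: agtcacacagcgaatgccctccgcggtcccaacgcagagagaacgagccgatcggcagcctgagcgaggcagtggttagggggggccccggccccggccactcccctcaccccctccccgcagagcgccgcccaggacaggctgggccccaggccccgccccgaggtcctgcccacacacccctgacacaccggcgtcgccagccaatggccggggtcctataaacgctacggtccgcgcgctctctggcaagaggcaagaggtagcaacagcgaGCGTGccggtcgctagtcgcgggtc
HK2: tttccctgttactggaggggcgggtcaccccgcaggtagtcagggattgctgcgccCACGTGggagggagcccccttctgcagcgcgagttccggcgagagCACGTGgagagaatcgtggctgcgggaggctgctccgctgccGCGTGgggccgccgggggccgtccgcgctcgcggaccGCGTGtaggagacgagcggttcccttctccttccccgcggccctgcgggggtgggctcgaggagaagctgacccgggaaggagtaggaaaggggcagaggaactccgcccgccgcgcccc
GPI: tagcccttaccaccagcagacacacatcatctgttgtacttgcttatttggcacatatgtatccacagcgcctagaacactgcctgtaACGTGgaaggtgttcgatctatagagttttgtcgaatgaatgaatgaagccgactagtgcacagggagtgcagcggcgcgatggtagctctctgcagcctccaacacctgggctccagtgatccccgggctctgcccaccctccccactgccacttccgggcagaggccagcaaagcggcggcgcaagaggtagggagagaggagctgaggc
PFKFB4: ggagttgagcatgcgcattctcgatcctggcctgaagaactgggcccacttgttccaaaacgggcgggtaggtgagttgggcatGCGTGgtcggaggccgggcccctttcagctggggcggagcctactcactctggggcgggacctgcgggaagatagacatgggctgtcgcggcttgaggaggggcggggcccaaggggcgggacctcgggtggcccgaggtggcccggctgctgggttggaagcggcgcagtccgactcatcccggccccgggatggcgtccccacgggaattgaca
HK1: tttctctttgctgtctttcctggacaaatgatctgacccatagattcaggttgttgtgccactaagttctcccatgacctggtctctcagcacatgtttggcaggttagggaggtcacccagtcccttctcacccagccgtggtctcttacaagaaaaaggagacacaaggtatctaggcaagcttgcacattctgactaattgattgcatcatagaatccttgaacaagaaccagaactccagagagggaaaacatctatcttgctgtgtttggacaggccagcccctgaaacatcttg

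The HK2 window held the most matches of the 26: 6 in all, 4 of ACGTG and 2 of GCGTG, with both of its CACGTG stretches upstream of the start. SLC2A1 had 1 GCGTG match 26 bases after the start, GPI 1 ACGTG match and PFKFB4 1 GCGTG match upstream. The printed HK1 window had none, and 2 of the 7 HK1 windows had one. Of HK2 the window with more matches is printed, and its other window held 3. PFKM, which was lower in hypoxia, had an ACGTG match at chr12:48105103-48105402 and at chr12:48105231-48105530. The printed windows therefore do not show whether a match goes with a rise. These are letters found in a window. Binding was not measured, and a window without a match says nothing of elements elsewhere.

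Levels are given as CPM, read counts scaled to the same total in each library, with library sizes adjusted by TMM within a table, and only groups of the same table are compared. Totals ran between 14111216 and 27217814 counts a library, with a common biological coefficient of variation between replicates, as edgeR estimates it, of 4.15% in the shRNA, 10.2% in the hexanediol, 3.16% in the rescue and 2.81% in the sgRNA table. All 8 luminal markers were detected in every library. Their sums, given below, are carried mainly by keratins. KRT8 had 1714 to 35453 CPM and KRT19 289 to 17513 CPM, while ESR1 had 13.7 to 175 CPM. Summed markers of basal, leukocyte, endothelial, erythroid and muscle cells were at or below 4.92 CPM. The fibroblast list summed to 13.0 to 72.4 CPM, of which COL1A1 had 12.9 to 72.3 CPM. COL1A2 had at most 9.72 CPM, and DCN and PDGFRB at most 1.32 and 1.76 CPM. The neuron list summed to 0.73 to 64.0 CPM, of which SYT1 had 0.73 to 63.2 CPM, while RBFOX3 and SNAP25 had at most 0.69 and 0.39 CPM. COL1A1 and SYT1 thus had the largest part of these sums, whose shifts are given with each table. Of the 8 hypoxia genes checked, all 8 rose in hypoxia. ZHX2 itself averaged 5.15 ± 1.53 CPM in shZHX2 cells and 18.8 ± 2.64 CPM in shCtrl hypoxic cells (SD, n = 3 each; log2 fold change -1.86 with SE 0.15 and adjusted p 3.6e-10). With the rescue constructs it averaged 72.3 CPM with WT, 54.0 CPM with PA, 80.5 CPM with SA, 6.86 CPM with the vector and 32.0 CPM with shCtrl. In the sgRNA table ZHX2 mRNA was not lower in the libraries labelled sgZHX2 (49.6 against 45.1 CPM in sgCtrl) or teton_sgZHX2 (49.3 against 47.5 CPM in teton_control). A guide can disrupt a protein without lowering its mRNA, so this does not check those labels.

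A gene is called changed when its adjusted p in edgeR's quasi-likelihood test, with Benjamini-Hochberg adjustment over all genes of the table, is under 0.05, and every adjusted p below is of this kind. Because so many genes pass in these tables, each count of members is set beside the share of all tested genes that passed. Scaling by library size alone, in place of TMM, shifted the median log2 fold change of all genes in hypoxia against normoxia to -0.36, against 0.12 with TMM, and in shZHX2 against shCtrl to 0.25, against 0.02. It shifted that median to 0.12 at 0.5% and 0.13 at 1% hexanediol, -0.12 in WT against shCtrl vector cells, 0.17 in PA against vector cells and 0.25 in PA against WT cells. The split of all genes called higher and lower then moved to 3385 and 8061 in hypoxia (6421 and 5485 with TMM), 7086 and 3393 in shZHX2 (5006 and 4955), 4564 and 2356 at 0.5% hexanediol (3265 and 3301) and 6314 and 4239 at 1% (5084 and 5439). In the rescue table it moved to 2728 and 5266 in WT against shCtrl (3882 and 3874), 5804 and 1794 in PA against the vector (3536 and 3270) and 7012 and 2913 in PA against WT (4742 and 4826). Changes are therefore relative to the bulk of the measured mRNAs, and the few members whose direction turns with this choice are named where they occur.

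Hypoxia raised most of the pathway. Of the 9 members that could be tested in the shRNA table, 7 rose, each by more than 2-fold, and 1 fell, while 43.1% of 14903 tested genes were called higher (15.3% by at least 2-fold) and 36.8% lower. The median log2 fold change was 1.94 over the 9 members and 0.12 over all genes. SLC2A1 and PFKFB4 had the largest changes among them, HK1 the smallest. SLC2A3 had 10 counts in all over the 9 libraries and was below the filter.

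SLC2A1, the main glucose transporter of most growing cells, had 441, 443 and 441 CPM in the hypoxic shCtrl libraries, against 33.1, 30.2 and 29.2 CPM in the normoxic ones. The groups lay far apart, and the level was 14.3-fold higher in hypoxia (log2 fold change 3.84 with SE 0.036 and adjusted p 6.2e-64). PFKFB4 had 476, 479 and 482 CPM in hypoxia and 31.8, 26.9 and 34.1 CPM in normoxia. It was 15.5-fold higher (log2 fold change 3.95 with SE 0.051 and adjusted p 1.1e-20). PFKFB3 had 1308, 1293 and 1310.4 CPM in hypoxia and 344, 342 and 335 CPM in normoxia (log2 fold change 1.94 with SE 0.026 and adjusted p 2.1e-55). The PFKFB3 groups did not overlap.

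HK2 had 60.7, 58.7 and 61.6 CPM in hypoxia and 17.4, 17.9 and 18.3 CPM in normoxia. It was 3.38-fold higher (log2 fold change 1.76 with SE 0.052 and adjusted p 1.4e-37). HK1 had 331, 332 and 326 CPM in hypoxia, against 346, 324 and 342 CPM in normoxia. The HK1 groups overlapped and the change was not called (log2 fold change -0.04 with SE 0.029 and adjusted p 0.254), but the call depends on the scaling and the tool: HK1 was called lower in 6 of 6 other fits without a replicate block, at -0.52 with library size only and -0.37 after correction for GC content and gene length.

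GPI had 1224, 1178 and 1258 CPM in hypoxia, against 285, 243 and 264 CPM in normoxia, and was 4.62-fold higher (log2 fold change 2.21 with SE 0.051 and adjusted p 1.7e-11). Among the subunits of phosphofructokinase-1, PFKP had 1320.0, 1313 and 1299.8 CPM in hypoxia and 336, 328 and 328 CPM in normoxia (log2 fold change 1.99 with SE 0.026 and adjusted p 4.8e-56). PFKL had 1242, 1196 and 1194 CPM in hypoxia and 546, 539.6 and 527 CPM in normoxia (log2 fold change 1.17 with SE 0.026 and adjusted p 2.1e-44). PFKM, the muscle type subunit, went the other way, with 95.0, 94.2 and 89.4 CPM in hypoxia and 123, 117 and 124 CPM in normoxia (log2 fold change -0.39 with SE 0.039 and adjusted p 1.3e-13). No PFKM library of one condition reached the range of the other.

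Lower glycolysis was mostly higher as well. Of 12 genes of lower glycolysis and lactate export, 11 rose and 1, the lactate transporter SLC16A1, fell to 1.14 CPM in hypoxia, against 3.88 CPM in normoxia. The largest rises were in the lactate exporter SLC16A3 (log2 fold change 4.27), the aldolase ALDOC (3.94) and the enolase ENO2 (3.49). Of the 8 tested among 16 relatives of the members, 5 rose and 2 fell, PFKFB2 with -1.61. Among 6 tested genes that brake or leave upper glycolysis, 4 rose and 1 fell. PGM1, which links glucose 6-phosphate with glycogen, had 2.23, and TXNIP, which lowers glucose uptake through GLUT1, had 1.51. GFPT1, the entry to the hexosamine pathway, had -1.78. Of the regulators, MYC mRNA rose (1.46), EPAS1 mRNA rose (0.73) and HIF1A mRNA fell to 5.06 CPM in hypoxia, against 72.5 CPM in normoxia. Mitochondrially encoded genes took 9.12 to 9.57% of counts in hypoxia and 4.55 to 4.76% in normoxia. Summed luminal markers were 58097 to 58789 CPM in hypoxia and 22216 to 23958 CPM in normoxia. The fibroblast list had 46.7 to 51.7 CPM in hypoxia and 33.2 to 36.7 CPM in normoxia, and the neuron list 0.73 to 1.24 CPM in hypoxia and 6.42 to 7.49 CPM in normoxia. The part of these shifts in the members' changes was not tested.

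The same genes under ZHX2 knockdown did not move as a block. In shZHX2 hypoxic cells, 5 of the 9 tested members were higher and 4 lower than in shCtrl hypoxic cells, with none left uncalled, where 33.6% of all tested genes were higher and 33.2% lower. The members' median was 0.17, and that of all genes 0.02. HK2 rose most, PFKL fell most, and members that rose in hypoxia were among both the higher and the lower ones. This comparison and the one with normoxia share the shCtrl hypoxic libraries.

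HK2 had 155, 157 and 163 CPM in shZHX2 cells, against 60.7, 58.7 and 61.6 CPM in shCtrl hypoxic cells. It was 2.62-fold higher (log2 fold change 1.39 with SE 0.044 and adjusted p 7.7e-36), and stood above the level of both shCtrl groups. PFKL had 610.2, 607 and 607 CPM in shZHX2 cells and 1242, 1196 and 1194 CPM in shCtrl hypoxic cells. It was 1.99-fold lower (log2 fold change -0.99 with SE 0.026 and adjusted p 2.7e-40), and its shZHX2 libraries lay much closer to the normoxic ones than to the hypoxic ones. PFKM had 144, 144 and 139.8 CPM in shZHX2 cells and 95.0, 94.2 and 89.4 CPM in shCtrl hypoxic cells (log2 fold change 0.62 with SE 0.039 and adjusted p 1.7e-21). Its shZHX2 libraries lay above the normoxic ones as well. GPI had 1722, 1701 and 1722 CPM in shZHX2 cells and 1224, 1178 and 1258 CPM in shCtrl hypoxic cells (log2 fold change 0.49 with SE 0.047 and adjusted p 6.6e-06).

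PFKFB3 had 959.9, 978 and 991 CPM in shZHX2 cells, against 1308, 1293 and 1310.4 CPM in shCtrl hypoxic cells (log2 fold change -0.42 with SE 0.025 and adjusted p 1.5e-22). PFKFB4 had 604, 602 and 596 CPM in shZHX2 cells and 476, 479 and 482 CPM in shCtrl hypoxic cells (log2 fold change 0.33 with SE 0.040 and adjusted p 1.7e-06). Of the bifunctional enzymes, the one was lower and the other higher. HK1 had 240.1, 242 and 246 CPM in shZHX2 cells and 331, 332 and 326 CPM in shCtrl hypoxic cells (log2 fold change -0.44 with SE 0.029 and adjusted p 2.6e-20). SLC2A1 had 500.2, 496 and 491 CPM in shZHX2 cells and 441, 443 and 441 CPM in shCtrl hypoxic cells, a small rise without overlap (log2 fold change 0.17 with SE 0.028 and adjusted p 8.0e-07). PFKP had 1134, 1126 and 1154 CPM in shZHX2 cells and 1320.0, 1313 and 1299.8 CPM in shCtrl hypoxic cells (log2 fold change -0.20 with SE 0.025 and adjusted p 1.0e-10), and its sign turned with library size scaling (0.03, not called).

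**Figure D1:**
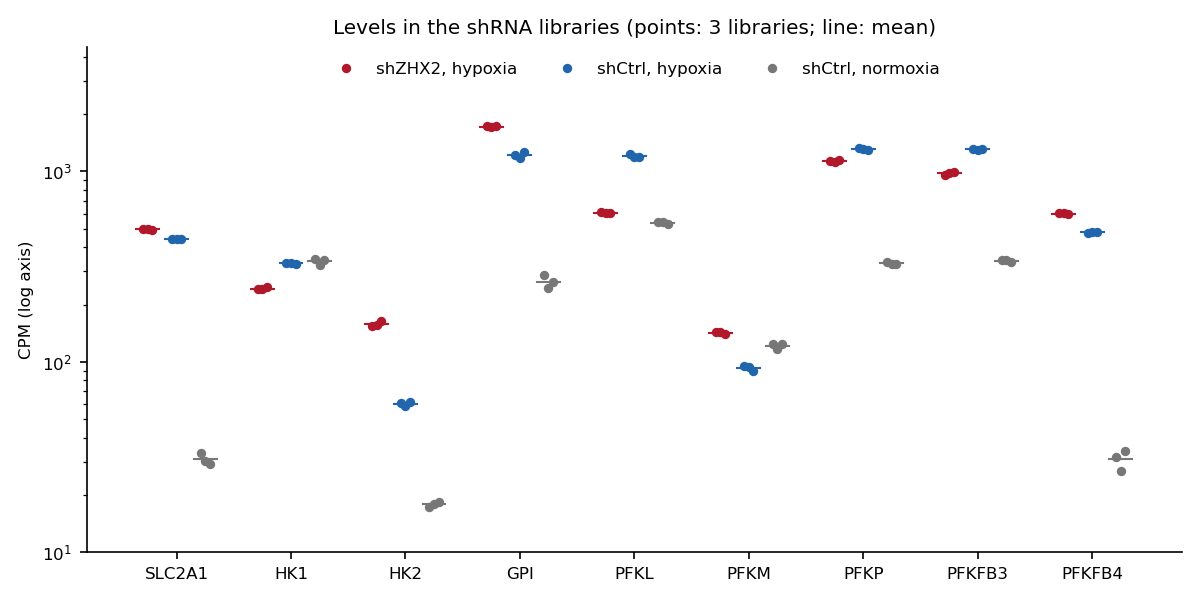
Level in CPM (log axis) of the 9 tested members in each library of the shRNA table: shZHX2 hypoxia, shCtrl hypoxia and shCtrl normoxia, with 3 points a group and a line at the mean. SLC2A1 and PFKFB4 stand more than 10 times higher in shCtrl hypoxia than in normoxia, HK1 does not, and PFKL and HK2 part in opposite directions in shZHX2 cells.

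Of the 12 genes of lower glycolysis, 11 fell in this comparison and 1, ENO2 (0.83), rose. SLC16A1 fell most (-1.74) but had under 2 CPM in both groups, and SLC16A3 had -0.78. PFKFB2, another bifunctional enzyme, rose to 12.6 CPM in shZHX2 cells, against 4.95 CPM in shCtrl hypoxic cells, while the transporter SLC2A6 fell (-1.21). Of the 8 tested relatives, 5 were higher and 3 lower, and of 6 brakes and exits 3 were higher and 2 lower. TXNIP rose (1.11). MYC fell (-1.06). Of the 8 hypoxia genes, 6 rose and 1 fell. Summed luminal markers were 27033 to 27304 CPM in shZHX2 cells and 58097 to 58789 CPM in shCtrl hypoxic cells, so the shZHX2 level lay nearer to the normoxic one. The fibroblast list had 69.5 to 72.4 CPM in shZHX2 cells and 46.7 to 51.7 CPM in shCtrl hypoxic cells. The neuron list had 0.81 to 1.49 CPM in shZHX2 cells and 0.73 to 1.24 CPM in shCtrl hypoxic cells. Mitochondrially encoded genes took 11.9 to 12.4% of counts in shZHX2 cells and 9.12 to 9.57% in shCtrl hypoxic cells. The part of these in the members' changes was not tested. In bulk RNA, fewer cells of a type and less RNA per cell cannot be told apart, here or in the other tables.

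The rescue table repeats the knockdown in other libraries, with an empty vector in both groups. There 8 of the 10 members were lower and 2 higher in shZHX2 vector cells than in shCtrl vector cells, against 35.3% of 14302 genes lower and 33.9% higher. The members' median was -0.56, and that of all genes -0.01. SLC2A3, the high-affinity transporter best known from neurons, could be tested here. It had 1.11, 1.94 and 1.35 CPM in shZHX2 vector cells, against 9.54, 9.72 and 9.71 CPM in shCtrl vector cells, and was 6.53-fold lower (log2 fold change -2.71 with SE 0.16 and adjusted p 1.4e-22). SLC2A14, its near-identical neighbour, had 1.69 CPM in shZHX2 vector cells and 4.61 CPM in shCtrl vector cells, and the split of reads between the pair is uncertain.

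PFKFB3 had 404, 419.6 and 398 CPM in shZHX2 vector cells, against 834, 823 and 832 CPM in shCtrl vector cells, and was 2.04-fold lower (log2 fold change -1.03 with SE 0.027 and adjusted p 5.3e-48). SLC2A1 had 3082, 3110.5 and 3153 CPM in shZHX2 vector cells and 4998, 4981 and 4814 CPM in shCtrl vector cells (log2 fold change -0.66 with SE 0.025 and adjusted p 2.9e-38). PFKP had 633, 636 and 625 CPM in shZHX2 vector cells and 1002, 1035 and 1018 CPM in shCtrl vector cells (log2 fold change -0.69 with SE 0.026 and adjusted p 3.1e-38). In each of these 3 genes the groups were well apart. HK1 (log2 fold change -0.58), PFKL (-0.54), PFKFB4 (-0.23) and HK2 (-0.15) were also lower. PFKM had 68.0, 71.9 and 68.9 CPM in shZHX2 vector cells and 36.3, 40.4 and 39.8 CPM in shCtrl vector cells (log2 fold change 0.84 with SE 0.045 and adjusted p 2.9e-28). PFKM and GPI (0.15) were the members that rose.

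Set side by side, the knockdown gave different values in the 2 tables for several members, and since the tables were made and normalised apart, the difference between them was not tested. HK2 had 1.39 in the shRNA table and -0.15 in the rescue table. SLC2A1 had 0.17 and -0.66, and PFKFB4 0.33 and -0.23. Those 3 changed sign between tables. PFKL, HK1, PFKFB3 and PFKP were lower, and PFKM and GPI higher, in both.

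Cells with the construct labelled WT had most members higher than the shZHX2 vector cells. Against the shZHX2 vector cells, 8 of 10 members rose and 1 fell in WT cells, beside 35.1% of all genes higher and 34.6% lower, and the members' median was 0.35, with 0.00 (-0.0016) for all genes. SLC2A1 had 5614, 5718 and 5775 CPM with WT (log2 fold change 0.87 with SE 0.025 and adjusted p 5.4e-46 against the vector) and so passed the shCtrl vector level (0.21 against it, adjusted p 1.1e-11). SLC2A3 had 6.52, 4.62 and 7.91 CPM with WT (log2 fold change 2.11 with SE 0.17 and adjusted p 1.4e-16). This lay between the vector and shCtrl groups. PFKFB3 had 696, 702 and 717 CPM with WT (log2 fold change 0.79 with SE 0.027 and adjusted p 1.3e-40), PFKP 955, 947 and 952 CPM (log2 fold change 0.59 with SE 0.026 and adjusted p 5.4e-34), and PFKL 766, 763 and 759 CPM (log2 fold change 0.32 with SE 0.027 and adjusted p 1.9e-17). These 3 stayed under the shCtrl vector level. PFKM, which the knockdown raised, had 46.0, 51.9 and 48.3 CPM with WT (log2 fold change -0.52 with SE 0.044 and adjusted p 1.3e-17). HK1 (0.25), HK2 (0.38) and GPI (0.24) rose as well, and PFKFB4 was not called (0.02 with adjusted p 0.458).

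The value of PFKFB4 depends on the processing: its log2 fold change with WT was -0.07 with library size only and 0.31 after GC and length correction, when it was called. Against shCtrl vector cells, WT cells had 4 members higher and 6 lower, beside 27.1% of genes in each direction. HK2 (0.23), GPI (0.39), PFKM (0.32) and SLC2A1 were the 4 higher ones. SLC2A3 was the lowest of the rest (-0.60), with HK1 at -0.33, PFKL at -0.22, PFKP at -0.10, PFKFB3 at -0.23 and PFKFB4 at -0.21. PFKL (0.08) and PFKP (0.05) turned sign after GC and length correction, and PFKFB3 and PFKFB4 were then no longer called.

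ZHX2 mRNA averaged above the shCtrl level with PA and SA, as with WT. Apart from SLC2A3, the largest log2 fold change of a member against the shZHX2 vector cells was that of HK2 with PA (0.38). Against the vector, PA cells had 4 members higher and 3 lower, where 24.7% of all genes were higher and 22.9% lower, and SA cells had 3 higher and 5 lower, where 20.2% were higher and 21.5% lower. The members' medians were 0.03 for PA and -0.07 for SA, with 0.02 and 0.00 (-0.00016) for all genes. These comparisons and that of WT share the vector libraries. SLC2A1 had 3269, 3318 and 3271 CPM with PA and 3413, 3338 and 3306 CPM with SA, so its log2 fold change against the vector was 0.08 with PA and 0.11 with SA, where WT gave 0.87. PFKFB3 had 455, 458 and 440.3 CPM with PA and 400.4, 395 and 387 CPM with SA (0.15 for PA and -0.05 with adjusted p 0.176 for SA against the vector). Of these, the PA value was called. With PA the call of SLC2A1 did not hold with no filter on low counts, that of PFKM with library size only, and that of PFKP with library size only or GC and length correction. With library size only, PFKP turned sign to 0.03 and PFKFB4, not called with TMM (-0.05), turned to 0.10 and was called, so that 7 members were higher and 1 lower with PA than with the vector. PFKFB3 in SA cells turned to 0.11 after GC and length correction, when it was called.

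HK2 had 1077, 1075 and 1049.7 CPM with PA, close to the 1054, 1074 and 1062 CPM with WT, and 916, 918 and 908 CPM with SA. PA against the vector gave 0.38 and WT against the vector 0.38. SLC2A3 rose with both (0.80 with PA, 0.77 with SA), but its levels of 2.65, 2.85 and 2.15 CPM with PA and 2.09, 2.63 and 2.84 CPM with SA stayed under those with WT. PFKL (-0.23 with PA, -0.24 with SA) and PFKP (-0.12 with PA, -0.15 with SA) were lower than with the vector, though in both SA values the sign turned after GC and length correction (0.07 for PFKL, 0.03 for PFKP). HK1 (-0.08) and PFKFB4 (-0.23) were lower with SA, and neither was called after that correction, when HK1 had 0.005 and 6 members were higher and 1 lower with SA than with the vector. PFKM was lower than with the vector (-0.23 with PA, -0.20 with SA). HK1 (0.05) and GPI (0.01) were not called with PA, nor GPI with SA (-0.06), where the correction turned it to 0.06.

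Set against WT cells, most members were lower with PA and with SA. In PA cells 8 members were lower and 1 higher than in WT cells, beside 33.7% of all genes lower and 33.2% higher, and in SA cells 9 were lower and 1 higher, beside 32% lower and 32.1% higher. SLC2A1 was 1.74-fold lower in PA cells (log2 fold change -0.80 with SE 0.025 and adjusted p 3.1e-43) and 1.70-fold lower in SA cells (log2 fold change -0.77 with SE 0.025 and adjusted p 4.7e-42). PFKFB3 was 1.56-fold lower in PA cells (log2 fold change -0.64 with SE 0.027 and adjusted p 5.9e-35) and 1.79-fold lower in SA cells (log2 fold change -0.84 with SE 0.027 and adjusted p 6.1e-42). PFKP followed, with -0.71 in PA and -0.74 in SA cells, and PFKL had -0.54 in PA and -0.55 in SA cells. SLC2A3 had -1.31 and -1.34 for PA and SA. PFKM was the 1 member higher in both (0.29 in PA, 0.32 in SA). HK2 was not called between PA and WT (log2 fold change 0.01 with SE 0.025 and adjusted p 0.870), but was called at 0.25 with library size only and at -0.12 after GC and length correction. HK1 (-0.21), GPI (-0.22) and PFKFB4 (-0.07) were lower in PA than in WT cells with TMM and turned sign with library size only, at 0.04, 0.02 and 0.17, with 5 members lower and 3 higher under that scaling. In SA cells HK1 (-0.33), HK2 (-0.22), GPI (-0.30) and PFKFB4 (-0.25) were lower than in WT cells. ZHX2 mRNA was lower with PA than with WT (log2 fold change -0.42) and slightly higher with SA (0.15), and protein was not measured.

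**Figure D2:**
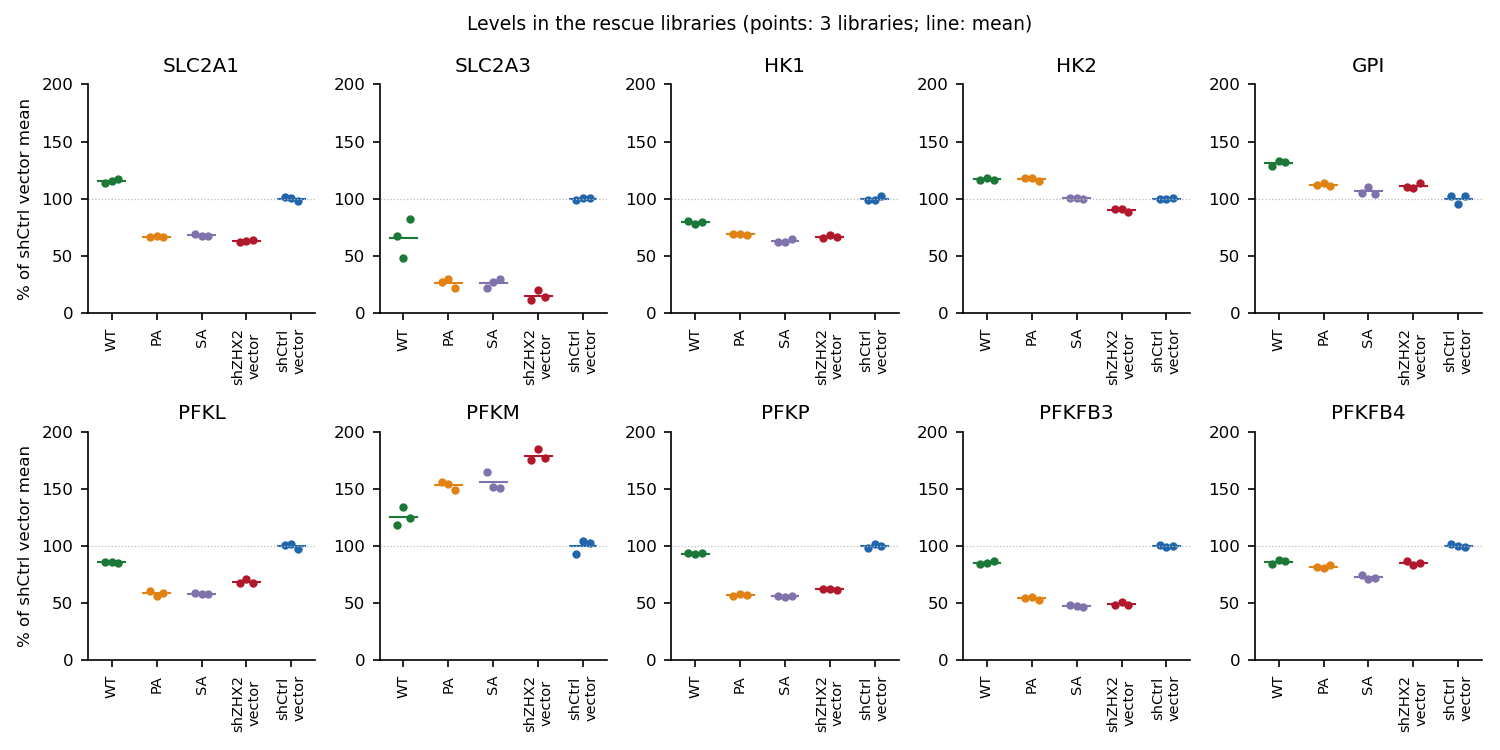
Level of each member in the rescue table as a percent of the shCtrl vector mean, for shZHX2 cells with WT, PA, SA or the vector and for shCtrl vector cells; 3 points a group. SLC2A1 averages 116% with WT, 66.6% with PA, 68.0% with SA and 63.2% with the vector, while GPI stays above 100% in all 4 shZHX2 groups.

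In the knockdown of this table, 9 of 12 lower glycolysis genes fell and 1 rose, with LDHA, the lactate dehydrogenase A subunit, lowest (-0.80). With WT, 7 rose and 2 fell against the vector, LDHA with 1.20 and ENO1 with 0.62. In PA against WT cells 10 of them were lower and none higher, and in SA against WT cells 9 were lower and 1, PGK1, higher. Among the brakes and exits, TIGAR, which lowers fructose 2,6-bisphosphate, was higher in the knockdown (1.84) at 2.22 CPM, against 0.610 CPM in shCtrl vector cells, and the gluconeogenic FBP1 was lower (-0.99). Among the relatives, SLC2A12 fell in the knockdown (-2.03), at 0.473 CPM in shZHX2 vector cells and 1.92 CPM in shCtrl vector cells. All 8 hypoxia genes were lower in the knockdown and all 8 were higher with WT than with the vector. MYC had -1.64 in the knockdown, 1.51 with WT against the vector, -1.22 in PA against WT and -1.26 in SA against WT. Summed luminal markers were 43577 to 44263 CPM with WT, 28757 to 28973 CPM with PA, 32063 to 32519 CPM with SA, 30618 to 31932 CPM with the vector and 45679 to 47148 CPM with shCtrl. The fibroblast list had 13.0 to 15.5 CPM with WT, 17.9 to 20.0 CPM with PA, 14.9 to 17.0 CPM with SA, 27.7 to 30.2 CPM with the vector and 17.0 to 21.2 CPM with shCtrl. The neuron list had 6.71 to 7.47 CPM with WT, 4.34 to 5.70 CPM with PA and 4.29 to 5.18 CPM with SA. It had 2.62 to 3.80 CPM with the vector and 5.77 to 5.99 CPM with shCtrl. Mitochondrially encoded genes took 0.31 to 0.33% of counts with WT, 1.16 to 1.26% with PA, 1.12 to 1.19% with SA, 0.79 to 0.81% with the vector and 0.75 to 0.78% with shCtrl. The part of these shifts in the members' changes was not tested.

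With 1% hexanediol, 5 of the 9 tested members were lower and 1 was higher than without it, and 1 library of each treated group stood apart from the others. In the second library of the 0.5% group, 7 of the 9 tested members had their lowest level of the group, at a median of 0.575 of the mean of the other libraries, and in the second library of the 1% group 8 of 9 did, at 0.512. In the untreated second library the median was 1.01. The low members of these libraries widen the errors of the comparisons below, so the counts, and the members whose call changes, are also given without both. These libraries were singled out by the members' own values, and leaving them out removes that scatter. Calls and adjusted p without them are therefore descriptive and not those of a blind choice. SLC2A3 had 39 counts in all over the 9 libraries and was not tested.

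At 0.5%, 3 members were called lower and 1 higher, where 19.6% of 16840 genes were lower and 19.4% higher; the members' median was -0.89 and that of all genes 0.00 (0.0019). Without the second treated libraries 8 were lower and 1 higher, where 24.7% of 17248 genes were lower and 24% higher. At 1%, 5 were lower, each by more than 2-fold, and 1 higher, where 32.3% were lower (12.7% by at least 2-fold) and 30.2% higher, with medians of -1.54 and -0.04. Without the second treated libraries 7 were lower and 2 higher at 1%, where 34.8% of genes were lower and 32.2% higher. Between the doses, 4 were lower at 1% than at 0.5%, where 27.7% were lower and 28.3% higher, and without the second treated libraries 6 were lower and 1 higher, where 30% were lower and 30.4% higher. The 4 were PFKFB3, HK1, PFKL and GPI, and the calls of PFKL (-0.65, adjusted p 0.0567) and GPI (-0.47, adjusted p 0.0505) did not hold after GC and length correction. The 6 were these 4 with SLC2A1 (-1.04) and PFKFB4 (-0.45), and HK2 was the higher one (0.43). PFKM was the higher member at each dose.

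PFKFB3 had 1018, 1022 and 987 CPM without hexanediol, 698, 445 and 684 CPM at 0.5% and 126, 64.2 and 124 CPM at 1%. Every 1% library lay under every 0.5% library. The 1% level was 9.62-fold below the untreated one (log2 fold change -3.27 with SE 0.31 and adjusted p 6.5e-05) and the step between doses was also called (log2 fold change -2.54 with SE 0.30 and adjusted p 2.8e-04). At 0.5% against none PFKFB3 was not called (log2 fold change -0.73 with SE 0.28 and adjusted p 0.0833), but was without the second treated libraries (-0.55, adjusted p 8.6e-10). HK1 had 529, 517 and 519 CPM without hexanediol, 345, 339.6 and 339 CPM at 0.5% and 174, 162 and 174 CPM at 1%. Its second libraries lay close to the others, and it was called at 0.5% (log2 fold change -0.61 with SE 0.062 and adjusted p 3.5e-06) and at 1% (log2 fold change -1.61 with SE 0.064 and adjusted p 6.5e-11).

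PFKL had 226, 237 and 226 CPM without hexanediol, 149, 82.8 and 141 CPM at 0.5% and 67.1, 44.1 and 66.6 CPM at 1% (log2 fold change -1.96 with SE 0.25 and adjusted p 2.4e-04 for 1% against none). GPI had 98.0, 102 and 99.0 CPM, 63.2, 38.3 and 58.2 CPM and 40.6, 28.7 and 36.2 CPM in the same order (log2 fold change -1.50 with SE 0.18 and adjusted p 4.3e-05). The PFKL groups of the 3 doses did not overlap, and the second 0.5% library of GPI lay within the 1% range. PFKM had 129.8, 128 and 126 CPM without hexanediol, 189, 219 and 179 CPM at 0.5% and 197, 200.2 and 185 CPM at 1%. It was higher at both doses (log2 fold change 0.61 with SE 0.079 and adjusted p 3.1e-05 at 0.5%; log2 fold change 0.60 with SE 0.079 and adjusted p 1.0e-05 at 1%) and did not differ between them beyond its error (-0.01 with adjusted p 0.919). Exons of PFKM and of SENP1 on the other strand overlap over 628 bases, 8.58% of PFKM exon length. SENP1 had 7097 counts in this table beside 24032 for PFKM. It had 1191 beside 20249 in the shRNA, 2149 beside 17940 in the rescue and 5205 beside 15555 in the sgRNA table. If strand was not used, reads of the shared bases could alter the PFKM counts, and how such reads were assigned is not given.

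SLC2A1 had 126, 115 and 118 CPM without hexanediol, 66.6, 20.2 and 69.2 CPM at 0.5% and 30.8, 15.7 and 34.9 CPM at 1%. The fall was called at 1% (log2 fold change -2.14 with SE 0.51 and adjusted p 0.00988) but not at 0.5% (log2 fold change -1.20 with SE 0.49 and adjusted p 0.102), where the second library was far below the others; without the second treated libraries it was -0.82 at 0.5% (adjusted p 7.2e-12) and -1.86 at 1%. PFKP had 366, 363 and 351 CPM, 205, 46.3 and 199 CPM and 208, 85.0 and 198 CPM at the rising doses. It was called at neither dose (-1.26 and -1.14), and at both without the second libraries (-0.83 and -0.83). PFKFB4 had 37.0, 40.6 and 37.9 CPM, 25.6, 6.75 and 22.6 CPM and 17.2, 4.78 and 18.0 CPM, and behaved likewise (-1.07 and -1.54, and -0.67 and -1.13 without the second libraries). HK2 had 77.7, 73.7 and 84.8 CPM, 65.8, 37.9 and 65.8 CPM and 84.1, 34.0 and 93.1 CPM. At 1% its other libraries were at or above most untreated ones and the second was far below, so its change was -0.17 with all libraries (adjusted p 0.746) and 0.17 without the second treated ones (adjusted p 0.0159). At 0.5% HK2 had -0.48 with all libraries (adjusted p 0.405) and -0.26 without the second treated ones (adjusted p 0.00108).

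Same-numbered libraries of the treated doses deviated together, while each correlation with those of the untreated cells was under 0.1. With the replicate number as a block, SLC2A1 (-1.36, adjusted p 0.0496) and PFKFB3 (-0.78, adjusted p 0.0333) at 0.5% and PFKFB4 at 1% (-1.71, adjusted p 0.0442) were called.

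The lists that follow were counted with all libraries only, so they compare with the member counts of that kind. Of the lower glycolysis genes, 4 of 12 were lower at 0.5%, and 10 were lower and 1, SLC16A1, higher at 1%. LDHA (-2.71), PGK1 (-2.57) and ENO1 (-2.36) had the largest falls at 1%. MYC fell (-2.65) and HIF1A rose (0.68). Summed luminal markers were 24570 to 27390 CPM without hexanediol, 10403 to 14927 CPM at 0.5% and 3133 to 3414 CPM at 1%. Of the 8 luminal markers, 3 were called lower and 2 higher at 0.5%, with a median log2 fold change of -0.12. At 1%, 7 were lower and none higher, with a median of -2.54. The neuron list had 19.1 to 20.4 CPM without hexanediol, 30.2 to 38.1 CPM at 0.5% and 60.3 to 64.0 CPM at 1%, and the fibroblast list had 35.3 to 41.5, 44.1 to 49.5 and 41.1 to 45.4 CPM at the rising doses. Mitochondrially encoded genes took 5.54 to 5.73% of counts without hexanediol, 4.88 to 6.54% at 0.5% and 4.37 to 4.56% at 1%. The part of these shifts was not tested. Of the 8 hypoxia genes, none was called at 0.5% hexanediol with all libraries, at a median log2 fold change of -0.77. At 1%, 2 were lower and none higher, at a median of -1.29. The hypoxia marker CA9 averaged 0.961 CPM in the untreated hypoxic libraries of this table.

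In the sgRNA table the largest change was in SLC2A3. It had 1.68, 2.28 and 2.35 CPM in the sgZHX2 libraries, against 9.75, 9.08 and 10.7 CPM in sgCtrl (log2 fold change -2.22 with SE 0.12 and adjusted p 7.3e-21), and 2.18, 1.78 and 2.49 CPM in teton_sgZHX2, against 8.74, 10.1 and 9.41 CPM in teton_control (log2 fold change -2.14 with SE 0.12 and adjusted p 2.2e-20). It was 4.66-fold lower in the first pair and 4.39-fold lower in the other, the 1 member past 2-fold in each, where 6.09% and 4.21% of all 15781 genes were that much lower. SLC2A14 was also lower (2.02 against 3.32 CPM in the first pair and 1.52 against 2.90 CPM in the other).

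Both hexokinases fell in both pairs. HK2 had 594, 596 and 585 CPM in sgZHX2 and 928, 951 and 955 CPM in sgCtrl (log2 fold change -0.68 with SE 0.023 and adjusted p 7.1e-29), and 629.8, 637 and 644 CPM in teton_sgZHX2 and 971, 964 and 988 CPM in teton_control (log2 fold change -0.61 with SE 0.023 and adjusted p 4.8e-27). HK1 had 419.7, 419 and 419 CPM in sgZHX2 and 598, 603 and 622 CPM in sgCtrl (log2 fold change -0.53 with SE 0.024 and adjusted p 1.9e-24), and -0.47 in the teton pair. The hexokinase groups did not overlap in either pair. SLC2A1 had 1918, 1953 and 1944 CPM in sgZHX2 and 2226, 2254 and 2276 CPM in sgCtrl (log2 fold change -0.22 with SE 0.021 and adjusted p 7.6e-13), and 1755, 1772 and 1777 CPM in teton_sgZHX2 and 2162, 2154 and 2137 CPM in teton_control (log2 fold change -0.28 with SE 0.021 and adjusted p 1.9e-16). The SLC2A1 groups did not overlap in either pair.

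In all, 3 members were higher and 5 lower in sgZHX2 than in sgCtrl, beside 37% of genes higher and 36.1% lower, and 3 higher and 6 lower in the teton pair, beside 34.4% higher and 34.7% lower. The medians of the members were -0.05 and -0.11, and those of all genes 0.01 and 0.00 (-0.0015). The 3 higher members were the same in both: PFKFB4 (0.30 and 0.17), PFKL (0.18 and 0.17) and PFKP (0.17 and 0.14). All 3 turned sign after correction for GC content and length, to -0.06 and -0.08, -0.30 and -0.15, and -0.25 and -0.16. The count-weighted GC content of the libraries was 52.6 to 52.7% in sgZHX2 and 50.8% in sgCtrl, and 52.0% in teton_sgZHX2 and 50.6 to 50.8% in teton_control, and exons of PFKL have 64.1% GC. The falls of SLC2A3 (-2.02 and -1.99 corrected), HK2 (-0.79 and -0.68), HK1 (-0.74 and -0.59) and SLC2A1 (-0.53 and -0.52) kept their direction and call. PFKM was called in neither pair (-0.04 with adjusted p 0.418 and 0.03 with adjusted p 0.436), though the first value was called after the correction (-0.14). PFKFB3 fell in both (-0.06 and -0.14, and -0.39 and -0.35 corrected), and its call in the first pair did not hold with library size only or with no filter. GPI had 0.004 with adjusted p 0.863 in the first pair and -0.09 with adjusted p 2.9e-04 in the other, where the call did not hold with library size only. The GPI value of the first pair turned to -0.11 after GC and length correction, when it was called.

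**Figure D3:**
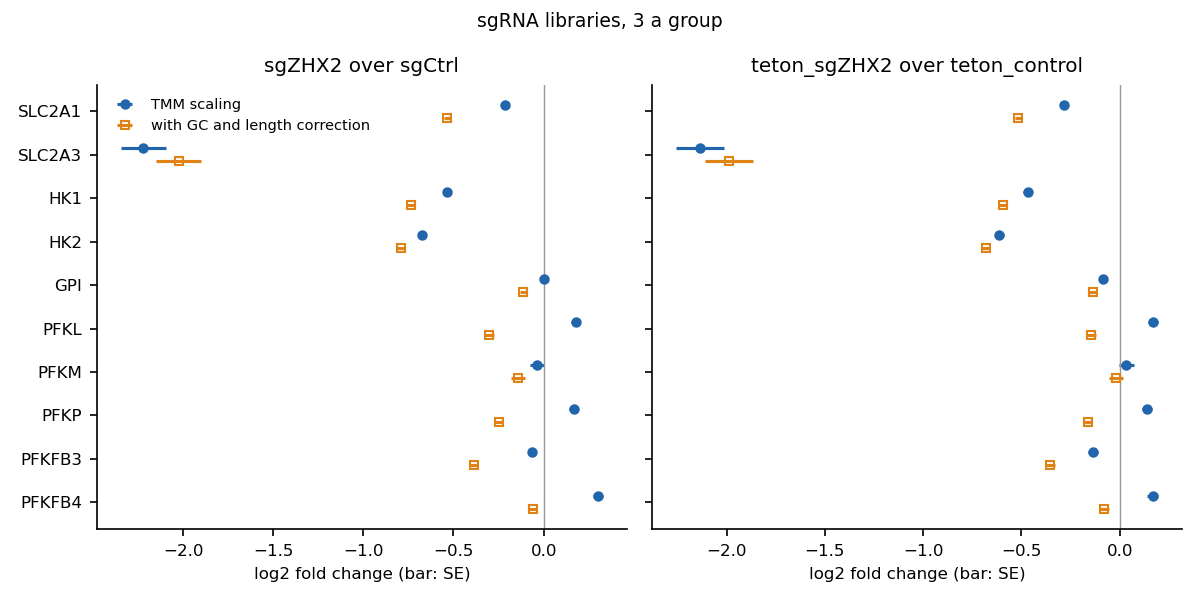
Log2 fold change of each member in sgZHX2 against sgCtrl and in teton_sgZHX2 against teton_control, with bars of 1 SE; circles with TMM scaling and squares with correction for GC content and gene length. SLC2A3 stands lowest near -2 in each pair whichever fit is used, and PFKL, PFKP and PFKFB4 lie above 0 as circles and below 0 as squares.

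Whether the pairs differ was tested directly. GPI (difference of log2 fold changes 0.09, adjusted p 0.0223) and PFKFB4 (0.13, adjusted p 0.00849) had a less negative or more positive effect in the sgZHX2 pair, beside 8.33% of all genes higher and 12% lower, and the other 8 members were not called. Neither call held after GC and length correction. PFKL, not called with TMM (0.01), was among the members called after that correction (-0.16, adjusted p 0.0013). Of lower glycolysis, 4 genes were higher and 8 lower in sgZHX2, and 3 higher and 7 lower in teton_sgZHX2. SLC16A3 rose (0.97 and 0.73) and LDHA fell (-0.74 and -0.57). Among the relatives, HKDC1, a further hexokinase, was higher in both (2.01 and 1.91), at 5.66 CPM in sgZHX2 against 1.41 CPM in sgCtrl. SLC2A6 was higher too (1.74 and 1.53). Among the brakes and exits, G6PC3 rose (0.77 and 0.64), and GFPT1 (-0.71 and -0.58) and TXNIP (-0.65 and -0.57) fell. HIF1A mRNA fell in both pairs (-1.53 and -1.20), as did MYC (-0.73 and -0.57). Of the 8 hypoxia genes, 6 were lower and 2 higher in each pair, with medians of -0.65 and -0.60. Mitochondrially encoded genes took 1.67 to 1.71% of counts in sgZHX2 and 2.51 to 2.71% in sgCtrl, and 1.69 to 1.82% in teton_sgZHX2 and 2.83 to 2.95% in teton_control. Summed luminal markers were 38792.5 to 39701 CPM in sgZHX2 and 37487 to 38200.9 CPM in sgCtrl. They were 35212.3 to 36507.5 CPM in teton_sgZHX2 and 35235.1 to 35608 CPM in teton_control. The fibroblast list had 53.4 to 55.1 CPM in sgZHX2 and 26.4 to 29.3 CPM in sgCtrl, and 48.2 to 48.3 CPM in teton_sgZHX2 and 28.4 to 31.1 CPM in teton_control. The neuron list had 4.07 to 4.97 CPM in sgZHX2 and 10.4 to 11.8 CPM in sgCtrl, and 5.21 to 5.45 CPM in teton_sgZHX2 and 10.8 to 11.5 CPM in teton_control. The part of these shifts was not tested.

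The 4 comparisons aimed at ZHX2 can be set side by side, bearing in mind that ZHX2 mRNA was not lower in the sgRNA table. SLC2A3 was lower in all 3 comparisons in which it could be tested, with -2.71 in the shZHX2 vector, -2.22 in the sgZHX2 and -2.14 in the teton_sgZHX2 comparison. HK1 was lower in 4 of 4, with -0.44 in shZHX2, -0.58 in the shZHX2 vector, -0.53 in the sgZHX2 and -0.47 in the teton_sgZHX2 comparison. HK2 was higher in 1 and lower in 3 of the same 4, and PFKFB3 lower in all 4. PFKL was lower with both hairpin comparisons and higher with both guide comparisons before GC correction, and lower in all 4 after it (-0.82, -0.66, -0.30 and -0.15).

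Between genes, levels are compared per kilobase of exon, as CPM per kb. The length is that of all annotated exons of a gene together, such as 10.68 kb for GPI and 4.72 kb for SLC2A1. The order between genes depends on these lengths. In the shRNA table SLC2A3, with 10 counts in all, is left out of the order. In normoxia PFKP was highest (68.4 CPM per kb), followed by PFKL (60.2), PFKFB3 (55.6) and HK1 (53.6), the last 2 with overlapping ranges, then GPI (24.7), PFKM (16.6), SLC2A1 (6.52), PFKFB4 (5.06) and HK2 (2.94). In shCtrl hypoxia PFKP stayed first (271 CPM per kb), SLC2A1 was in place 5 (93.5) and PFKM (12.7) and HK2 (9.95) last, with no overlap between neighbours. The 10 members summed to 911 CPM per kb in shZHX2 cells, 981 in shCtrl hypoxic and 294 in normoxic cells. In the rescue and sgRNA tables SLC2A1 led in every group (1207 CPM per kb with WT and 659 with the vector), GPI came next and SLC2A3 last. Without division by length, GPI stood above SLC2A1 in each of these groups, as with 5922 against 4931 CPM in shCtrl vector cells. In untreated hexanediol cells PFKFB3 led (165 CPM per kb) and SLC2A1 (25.3) overlapped PFKL (25.7). Levels of different tables are not on a common scale.

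The shares of the genes within an enzyme differed between groups as well. HK2 made up 40.4% ± 0.330 of HK1 plus HK2 per kb in shZHX2 cells, 16.0% ± 0.445 in shCtrl hypoxic and 5.21% ± 0.242 in normoxic cells (SD, n = 3 each). Within the other tables it was 55.8% in shCtrl vector, 61.8% in sgCtrl and 13.5% in untreated hexanediol cells. PFKM made up 6.03% ± 0.145 of the 3 PFK genes in shZHX2, 3.03% ± 0.0716 in shCtrl hypoxic and 11.4% ± 0.358 in normoxic cells. PFKP took 64.6% in hypoxia, against 47.1% in normoxia, and PFKL 32.3% in hypoxia, against 41.5% in normoxia. The PFKP share was larger in hypoxia. With hexanediol the PFKM share was 14.9% untreated, 40.6% at 0.5% and 41.3% at 1%, with SDs of 18.0 and 11.7 percentage points at the 2 doses that the second libraries widen. PFKFB4 made up 38.1% ± 0.542 of PFKFB3 plus PFKFB4 in shZHX2, 26.9% ± 0.184 in shCtrl hypoxic and 8.34% ± 0.987 in normoxic cells. It made up 32.1% with WT, 41.2% with PA, 41.5% with SA, 44.6% with the vector and 31.7% with shCtrl. These are shares of mRNA that depend on the exon lengths used, and enzyme amounts were not measured.

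**Figure D4:**
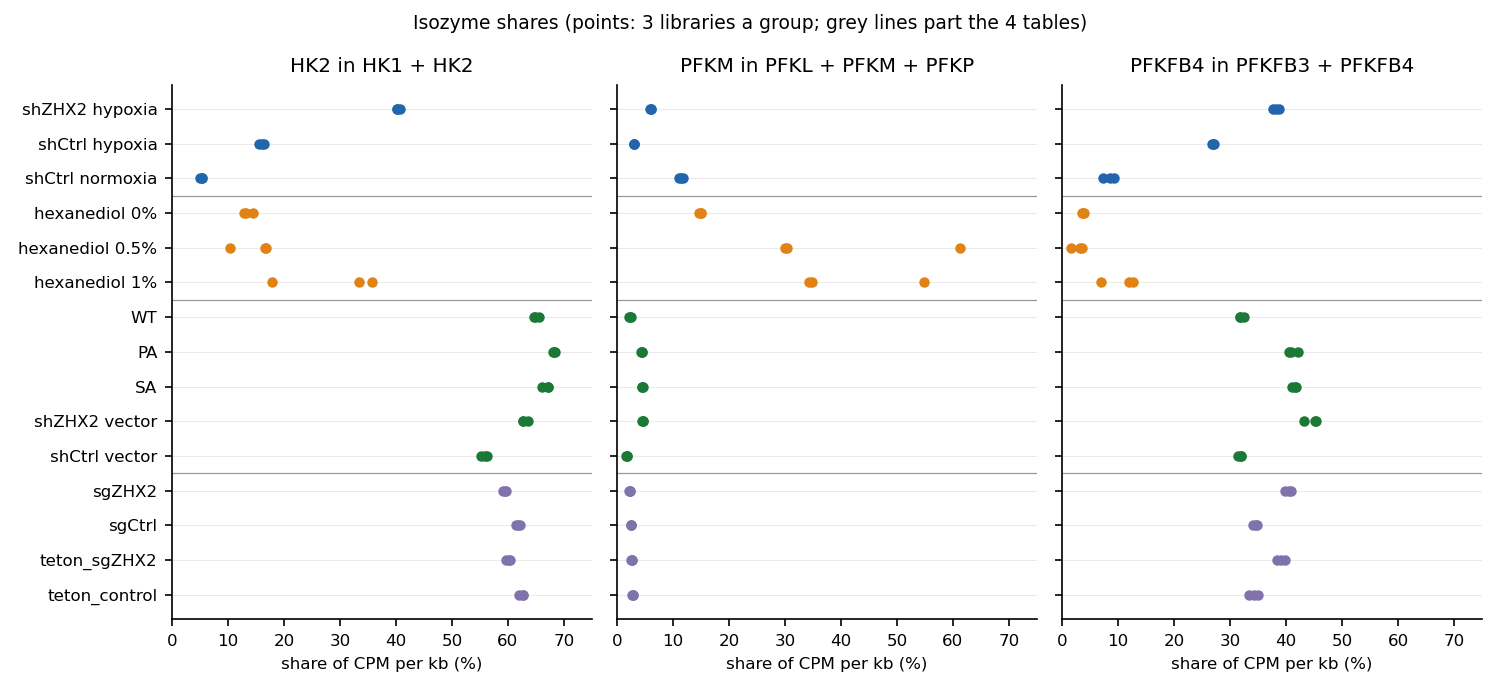
Share of CPM per kb (%) of HK2 in HK1 plus HK2, of PFKM in the 3 PFK genes and of PFKFB4 in PFKFB3 plus PFKFB4, for the 15 groups, coloured by table; points are libraries. The HK2 share runs between 5.21% in shCtrl normoxia and 68.3% with PA, and the PFKM share is highest in the hexanediol groups.

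Over the 45 libraries, after taking each table's mean from the log2 levels, the members fell into patterns that are given here as descriptions, since libraries of a group share their treatment and all share the scaling. SLC2A1 ran closest with PFKFB4 and GPI among the members (Pearson r 0.964 with each), and GPI with PFKFB4 (0.955). These genes all rose in hypoxia but parted in some other comparisons. In the shZHX2 vector comparison SLC2A1 had -0.66 and GPI 0.15, and in the sgZHX2 comparison SLC2A1 had -0.22 and PFKFB4 0.30. PFKM ran against PFKL (-0.764), and HK1 with HK2 had -0.044. Among 6175 other protein-coding genes, the nearest to SLC2A1 was NCKIPSD (0.975), to PFKFB4 NDRG1 (0.964), to GPI PLOD1 (0.949), to HK2 VEGFA (0.925), to PFKP PDK1 (0.928) and to PFKFB3 KRT15 (0.975). The nearest to HK1 was ACLY (0.969), to PFKL KRT8 (0.952), to PFKM STX3 (0.856) and to SLC2A3 FOXO3 (0.911). SLC2A3 was too low to test in the shRNA and hexanediol libraries, so its correlations come mainly from the rescue and sgRNA libraries.

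The genes lie, in GENCODE 29 on GRCh38, at chr1:42925375-42959176 (SLC2A1, ENSG00000117394), chr12:7919230-7936275 (SLC2A3, ENSG00000059804), chr10:69269984-69401884 (HK1, ENSG00000156515), chr2:74833981-74893359 (HK2, ENSG00000159399), chr19:34359480-34402413 (GPI, ENSG00000105220), chr21:44300051-44327376 (PFKL, ENSG00000141959), chr12:48105139-48146404 (PFKM, ENSG00000152556), chr10:3066333-3137712 (PFKP, ENSG00000067057), chr10:6144934-6254644 (PFKFB3, ENSG00000170525) and chr3:48517684-48562015 (PFKFB4, ENSG00000114268). SLC2A1, SLC2A3 and PFKFB4 are on the minus strand. Apart from PFKM, at most 5.07% of the exon length of a member is shared with another gene, and those genes had few counts.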

How the data were processed

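Per the labels' protocols, the T47D cells grew in RPMI medium, were transduced with lentivirus, and underwent selection in hygromycin or puromycin. A workstation kept cells hypoxic, and polyA RNA gave paired reads of 150 bp. The authors deposited raw counts per gene in 4 tables, with no normalisation. Per the submitters' processing notes, FastQC, HISAT2, featureCounts, DESeq2 and hg38 were named, without versions. What each did, the annotation and whether strand was used were not given in the sources used here. Every column was a library of the labels and all were used. Symbols matched 60370 of 60624 identifiers, and 58437 had a length and GC content from GENCODE 29.

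For each table, 1 model over all of its groups was fitted in edgeR 4.0.16 (R 4.3.3): filterByExpr, TMM, robust dispersion, quasi-likelihood F test, Benjamini-Hochberg over all genes tested (14903, 16840, 14302 and 15781 in the shRNA, hexanediol, rescue and sgRNA tables), called at adjusted p under 0.05. The SE is the log2 fold change over the square root of F. CPM use the TMM-scaled library sizes. The fits were also run on simulated counts. These had the same spread in every table, below that of the hexanediol table, and no library standing apart, so they do not check the errors there. Total counts were 17476890 to 19480495 (shRNA), 14111216 to 17713327 (hexanediol), 18056398 to 24760885 (rescue) and 21225854 to 27217814 (sgRNA). All 45 replicate pairs differed beyond sampling noise (chi-square per degree of freedom 1.70 to 25.0), so each library counts once.

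Alternatives were DESeq2 1.42.0, relative log expression scaling, library size only, no filter, only the groups compared, GC and length offsets by natural splines of 5 degrees of freedom, a replicate block, each library left out, and the second treated hexanediol libraries left out. Same-numbered libraries deviated together (each correlation over 0.1) in 1 of 22 pairs of groups, 0.5% and 1% hexanediol. Missing this cut does not show that the numbers are unpaired elsewhere. For teton_control with teton_sgZHX2, and for WT with PA, the best match had the same number in 6 of 6 checks. The correlations there were 0.025 to 0.102 and 0.019 to 0.026.

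All 10 members enter every comparison whose table has the counts to test them. From lists of lower glycolysis, relatives, brakes and exits, hypoxia genes and regulators, up to 3 genes with the largest changes are named, as are single genes that went against their list, which were chosen after their values were seen, and for each member the most alike genes over 45 libraries among protein-coding genes of mean log2 CPM of at least 3 in every table, on log2(CPM + 1). Members and lists were chosen with earlier results of these data known. Figures were drawn with matplotlib 3.10.9.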

Additional observations from a re-analysis of the deposited data

Results flagged for a closer look

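The effects of 2 members differed between the pairs of the sgRNA table by a test of the difference itself, the log2 fold change of sgZHX2 against sgCtrl minus that of teton_sgZHX2 against teton_control in edgeR. For GPI the difference was 0.0904 (adjusted p 0.0223), with log2 fold changes of 0.004 in the sgZHX2 pair and -0.09 in the teton_sgZHX2 pair. For PFKFB4 it was 0.133 (adjusted p 0.00849), with 0.30 and 0.17. Both differences are under 0.2 on the log2 scale, and neither was called after GC and length correction (0.02 for each). That correction called other members, among them PFKL (-0.16, adjusted p 0.0013). With 3 libraries a group, no group was large enough to test single libraries for standing apart.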

How the results depend on the processing

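The 145 log2 fold changes of members over the comparisons, and the counts of called members, were recomputed under each alternative. Direction and side of the threshold held for 137 log2 fold changes with DESeq2, 140 with relative log expression scaling, 136 with no filter, 126 with library size only and 108 with GC and length correction, for 132 of 135 with only the groups compared, and for 885 of 930 when single libraries were left out, where none turned sign while called. The replicate block kept 142 of 145 and moved 3 log2 fold changes past the threshold, SLC2A1 (-1.36) and PFKFB3 (-0.78) at 0.5% hexanediol and PFKFB4 (-1.71) at 1%; it changed no other call.

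With library size only, these changed sign: PFKP in shZHX2 against shCtrl (0.0299), PFKFB4 in WT against the vector (-0.0740), in PA against the vector (0.10) and in PA against WT (0.17), PFKP in PA against the vector (0.0318), and HK1 (0.0411) and GPI (0.0222) in PA against WT. Without the second treated hexanediol libraries, 9 members were called at 0.5% and 7 between the doses, against 4 in each with all libraries, and HK2 at 1% was 0.17.

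After GC and length correction, without a replicate block, signs turned for PFKL (0.0839) and PFKP (0.0533) in WT against shCtrl, HK1 (0.00464), GPI (0.0634), PFKL (0.0720), PFKP (0.0339) and PFKFB3 (0.11) in SA against the vector, HK2 in PA against WT (-0.12), GPI (-0.11), PFKL (-0.30), PFKP (-0.25) and PFKFB4 (-0.0593) in sgZHX2, PFKL (-0.15), PFKP (-0.16) and PFKFB4 (-0.0794) in teton_sgZHX2, and PFKL (-0.16) in the difference of the pairs. With the replicate block and this correction together the same signs turned, and those that differ in the digits given were 0.0837 and 0.0535 for PFKL and PFKP in WT against shCtrl, 0.00443, 0.0719 and 0.0340 for HK1, PFKL and PFKP in SA against the vector, and -0.0595 and -0.0795 for PFKFB4 in sgZHX2 and teton_sgZHX2. The correction called 2 members between the doses, against 4. Members called for the difference of the pairs numbered 1 with DESeq2, with library size only and with no filter, 3 with the correction, and 0 to 3 with single libraries left out, against 2. Of all genes, this correction called 2036 higher and 1723 lower in SA against the vector (2892 and 3072 without it) and 428 and 698 for the difference of the pairs (1315 and 1891), and DESeq2 592 and 1567 for that difference. With the block as well, the correction called 2019 and 1707, and 408 and 670.

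GPI between the doses was -0.79 to -0.47, PFKL at 0.5% -1.02 to -0.67, SLC2A1 between the doses -1.33 to -0.66, HK2 at 1% -0.42 to 0.17, and the differences of GPI 0.06 to 0.10 and of PFKFB4 0.10 to 0.15 with single libraries left out, and each changed its call or sign with some library. The causes were not tested. The second hexanediol libraries were singled out by the members' own values, so the calls without them are descriptive. Depth limits SLC2A3, with 10 counts over the shRNA and 39 over the hexanediol libraries. No change of SLC2A3 is stated there, though these libraries enter its correlations.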
